A study of Mus musculus with 8 samples.

Results

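Wfs1 and 8 genes whose proteins belong to the Wolfram pathway or to contacts between the endoplasmic reticulum (ER) and mitochondria were followed in mouse hippocampus. The members were taken by exact symbol from the deposited count table, so that rows marked as duplicates were not used: Wfs1, the CDGSH iron-sulfur domain genes Cisd1, Cisd2 and Cisd3, and Ncs1, Vdac1, Atf6, Mfn2 and Tmbim6. They were 9 of 24078 entries, and all 9 were among the 20478 that passed the low-count filter. The rule rests on what the proteins are known to do and uses no measured value. The members, and the gene lists further below, were however chosen with earlier results of these data known. The libraries came from 4 homozygous mice of the strain Wfs1tm1Koks and from 4 mice labelled wild-type under the same strain name. The labels give no age, sex, litter or treatment. Each library was made from ribosomal-RNA-depleted total RNA of the whole hippocampus of 1 animal, so all cell types of the dissected tissue contribute. The question was which of these transcripts differed between the genotypes.

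Wolframin, the product of Wfs1, is a glycoprotein that spans the ER membrane. In people, loss of WFS1 leads to Wolfram syndrome, with diabetes, optic atrophy and neurodegeneration, and mutation of CISD2 to a related form of the disease. At contact sites the ER lies close to the outer mitochondrial membrane, and calcium released from ER channels reaches mitochondria through porins such as VDAC1. NCS1 is a calcium sensor that binds wolframin, mitofusin 2 (Mfn2) tethers and fuses mitochondria, ATF6 is an ER stress sensor whose level wolframin helps to control, and TMBIM6 (BAX inhibitor-1) is an ER calcium leak protein that protects cells from ER stress. In the mouse hippocampus Wfs1 is known as a marker of CA1 pyramidal neurons.

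The 3 short sequences below come from the windows before the RefSeq starts (build GRCm38.p6) of the genes that the results turn on most: Wfs1 and Cisd1, which were lowest relative to wild-type, and Cisd2, which was not called. Capitals mark matches to CCAAT, the box bound by NF-Y, or to GCATGCGC, the core of the motif of nuclear respiratory factor 1, searched on both strands. In Wfs1 the CCAAT match is on the other strand. GENCODE M21 starts Wfs1, Cisd1 and Cisd2 upstream of the stretches shown, at 36989205, 71344954 and 135423925. The starts of Wfs1 and Cisd1 lie inside the windows searched, and that of Cisd2 lies before its window. All 3 stretches thus lie inside the gene spans given below, and that of Wfs1 lies within exon 1 of that annotation. The 4 motifs searched, and the 3 stretches shown, were chosen after the fits had been seen and after longer stretches outside annotated exons before Cisd1, Cisd3, Vdac1 and Mfn2 had been looked at without a match to either motif. Each is written 5′ to 3′ on the gene's strand, which is the minus strand for all 3.
Wfs1, chr5:36989059-36989088: acagcacatagtgATTGGcaggcttgccgg
Cisd1, chr10:71344899-71344928: tggaccagctGCGCATGCGCgactctaccg
Cisd2, chr3:135423453-135423482: cactcgccgcgcgCCAATcgcggcccggcg

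Within the 250 bases before the start, the Wfs1 and Cisd2 windows each held 1 CCAAT match and no GCATGCGC match. The Cisd1 window held 2 overlapping GCATGCGC matches, which together make the palindrome in capitals, and no CCAAT match. A CCAAT match was present in 33.8% of 32851 RefSeq windows of this length and a GCATGCGC match in 2.26%. Windows were matched for 7 of the 9 members, and none of their 11 windows held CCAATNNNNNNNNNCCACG, the ER stress element that ATF6 binds with NF-Y, which was found in 0.113% of all windows. CCACG, the second part of that element, was found in 1 window each of Vdac1 and Cisd3 and in no window of the other 5 matched members, where 28.3% of all windows held it. A match describes letters only, and binding was not measured.

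Library totals ran from 3250949 to 6747411 counts. In wild-type libraries Rn45s held 4.99% to 6.82% of counts and Lars2 4.15% to 4.56%. In homozygous libraries these shares were 2.29% to 3.77% and 2.42% to 3.99%, without overlap for either gene. Leaving both out was an alternative fit, and why their shares differ was not tested. The first principal component of log2 CPM (counts per 1000000 counts of the library) held 61.3% of the variance and separated the genotypes. By the quasi-likelihood test of edgeR, with p-values adjusted over all genes by Benjamini-Hochberg, 41.1% of 20478 genes were called at an adjusted p under 0.05, 20.4% lower and 20.7% higher in homozygous libraries. Scaling by library totals alone in place of TMM factors raised the median over all genes from 0.05 to 0.25 on the log2 scale, and the share of calls that were higher from 50.4% to 73.4%. Fold changes also followed abundance: the median was -0.46 in decile 10 of mean CPM, the most abundant genes, of which 55.1% were lower, and 0.30 in decile 1. Each member is therefore given also with a smooth curve of change on abundance, or on CPM per kilobase of exon, taken out. All markers of other cell types and of neighbouring regions had counts in some library. The summed level of 7 CA1 pyramidal markers ranged over 523 to 704 CPM in the wild-type libraries and 358 to 441 CPM in the homozygous ones. That of 6 oligodendrocyte markers was 1371 to 2195 CPM and 936 to 1160 CPM, and that of 8 choroid plexus markers 562 to 1471 CPM and 251 to 998 CPM. Of these lists 4 of 7, 5 of 6 and 3 of 8 members were lower, and 0, 0 and 1 were higher. The choroid plexus ranges overlapped, while CA1 and oligodendrocyte sums were lower in every homozygous than in every wild-type library. That held also for CA2 and CA3 markers (305 to 369 CPM and 226 to 251 CPM) and GABAergic markers (361 to 392 CPM and 238 to 279 CPM). It held for astrocyte markers too (2903 to 3622 CPM and 1960 to 2207 CPM). Of these last lists 5 of 7, 4 of 6 and 3 of 6 members were lower and 1, 0 and 0 higher. Dentate granule markers summed to 307 to 337 CPM and 286 to 312 CPM, with 1 of 7 lower and 0 higher. Sums also overlapped for microglia (194 to 246 CPM and 194 to 269 CPM) and endothelial markers (131 to 157 CPM and 117 to 143 CPM). The same was so for striatum (149 to 281 CPM and 149 to 244 CPM) and thalamus markers (92.4 to 129 CPM and 119 to 137 CPM). Of these 4 lists 2 of 7, 2 of 5, 0 of 6 and 0 of 5 were lower and 0, 0, 1 and 1 higher. The summed level of 5 neocortex markers was 320 to 370 CPM and 421 to 852 CPM, with 1 of 5 lower and 1 higher. Their median log2 fold change was -0.39, so the higher sum does not stand for the list as a whole. With a robust curve on CPM per kilobase taken out, 3 of 7 CA1 markers and 3 of 7 CA2 and CA3 markers were lower. Of oligodendrocyte and astrocyte markers 0 of 6 each were lower, beside 15.2% of all genes. Of GABAergic, choroid plexus, dentate granule and neocortex markers 1 of 6, 3 of 8, 1 of 7 and 2 of 5 were lower. In the order of these lists 0, 1, 0, 1, 0, 1, 0 and 1 were higher. What part these markers have in the results below was not tested.

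Of the 9 members 8 were lower in homozygous hippocampus, 0 were higher, and Cisd2 passed in neither direction. Wfs1, the gene targeted in this strain, is among the 8 and in every count of lower members below. The shares over all genes tested were 20.4% lower and 20.7% higher. Ncs1, Vdac1, Atf6, Mfn2 and Tmbim6 were in decile 10 of mean CPM, of which 55.1% of genes were lower. The same 8 were lower in every homozygous library than in every wild-type library, where 18.8% of all genes tested had that pattern. The median log2 fold change of the members was -0.81, against 0.05 for all genes. With the abundance trend removed 6 of 9 members were lower, where 16.3% of all genes were. With the trend on CPM per kilobase removed 2 of 9 were lower, where 15.2% of all genes were, and these were Wfs1 and Cisd1. These counts depend on how the curve is fitted, and the robust curve used here was chosen after seeing the data. With least-squares curves 8 of 9 were lower after the abundance correction (18.7% of all genes) and 7 of 9 after the correction for CPM per kilobase (19.3%). Trend-removed values below are those of the robust curves unless least squares is named.

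**Figure D1:**
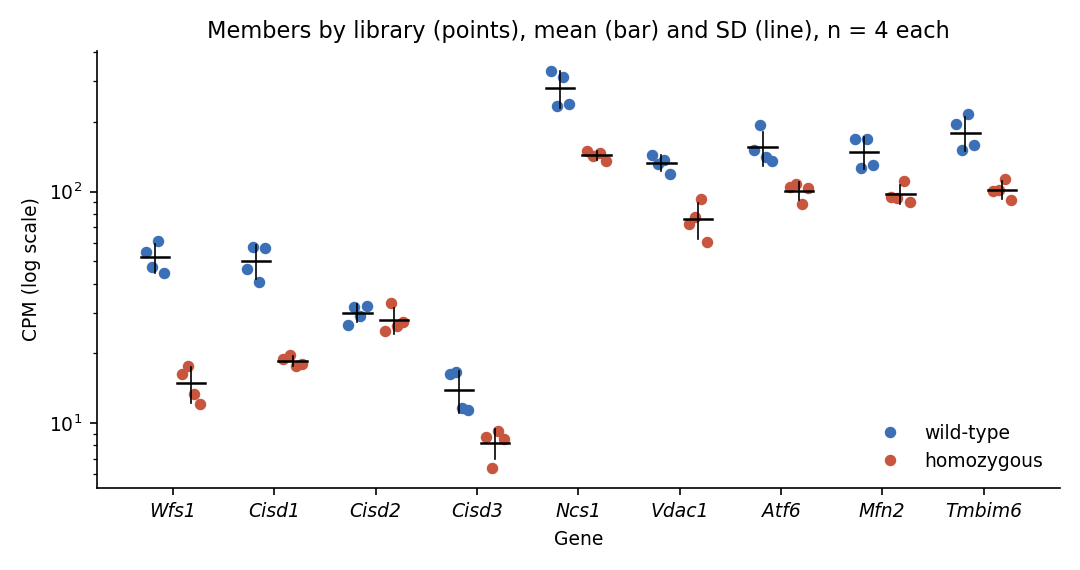
CPM of the 9 members (log axis) in each of the 4 wild-type and 4 homozygous libraries, with bars for the mean and lines for the SD. Wfs1 and Cisd1 are farthest apart between genotypes, Cisd2 overlaps, and the other members are lower in homozygous libraries without overlap.

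Wfs1 was the member with the largest difference. In wild-type libraries, in the order of replicates 7 to 10, its level was 54.6, 47.5, 61.3 and 44.6 CPM. In homozygous replicates 15 to 18 it was 16.3, 17.7, 13.3 and 12.03 CPM. The highest homozygous value was well below the lowest wild-type value. The log2 fold change was -1.81 (SE 0.16, adjusted p 2.62e-05, edgeR quasi-likelihood test), which leaves 28.6% of the wild-type level with a 95% interval of 23.0% to 35.6%. Removing a trend moved it little, to -1.78 with the abundance trend removed and to -1.78 with the trend on CPM per kilobase removed. The call held in all 21 alternative fits, between -1.90 and -1.60.

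The counts left in homozygous libraries were set beside the structure of the gene. In GENCODE M21 on mm10, Wfs1 lies on chromosome 5 from 36966104 to 36989205 on the minus strand, and its principal transcript has 8 exons and 3787 bases. Exon 8, from 36966104 to 36968678, holds 68.0% of the exon bases and 67.5% of the coding bases, so exons 1 to 7 hold 32.0%. The labels do not say which part of the gene is altered. The published allele of this name is, from general knowledge that was not checked here, one in which most of the last exon is replaced by a reporter cassette. Counts are per gene and not per exon, so whether the remaining counts lie in exons 1 to 7 was not tested. CA1 pyramidal markers had a median log2 fold change of -0.71, beside -0.64 for CA2 and CA3 markers, -0.66 for oligodendrocyte markers, -0.46 for GABAergic markers, -0.33 for astrocyte markers and -0.12 for dentate granule markers. With the trend on CPM per kilobase removed these medians were, in the same order, -0.50, -0.36, -0.05, -0.23, 0.09 and -0.24. With the abundance trend removed they were -0.53, -0.48, -0.30, -0.18, 0.05 and -0.16. Fewer cells of a type and less RNA per cell cannot be told apart in bulk tissue.

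Genes beside Wfs1 were compared because a targeted locus carries its flanking chromosome with it. Of 19 tested genes that start within 1 Mb of the start of Wfs1, 5 were lower and 2 higher, or 36.8%, close to the 41.1% of all genes. Their median log2 fold change was 0.15, and they ranged from -1.10 to 0.89. The lowest was Mrfap1, at 207 ± 12.3 CPM in wild-type and 96.8 ± 7.79 CPM in homozygous libraries (SD, n = 4 each). Ppp2r2c, a regulatory subunit of protein phosphatase 2A, fell by 0.89 (SE 0.14) on the log2 scale. Crmp1, a neuronal collapsin response mediator, fell by 0.78 (SE 0.17), and Tbc1d14, a Rab GTPase-activating-domain protein, fell by 0.51 (SE 0.12). Evc, a cilium gene, rose with 0.73 (SE 0.17) and 4933401P06Rik with 0.89 (SE 0.24). The spans of 4933401P06Rik and Ppp2r2c overlap, as do those of Evc and Crmp1, so that their reads may not be told apart without strand, and the values of these 4 genes are uncertain. Mrfap1 and Ppp2r2c did not pass with the trend on CPM per kilobase removed (-0.27 and -0.17), although both did with a least-squares curve, and Tbc1d14 did not with library totals as the only scaling. The tested gene with the nearest start, Jakmip1, begins 39130 bases away and was not called (log2 fold change -0.18, adjusted p 0.286 in edgeR). It was named after its value was seen.

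**Figure D2:**
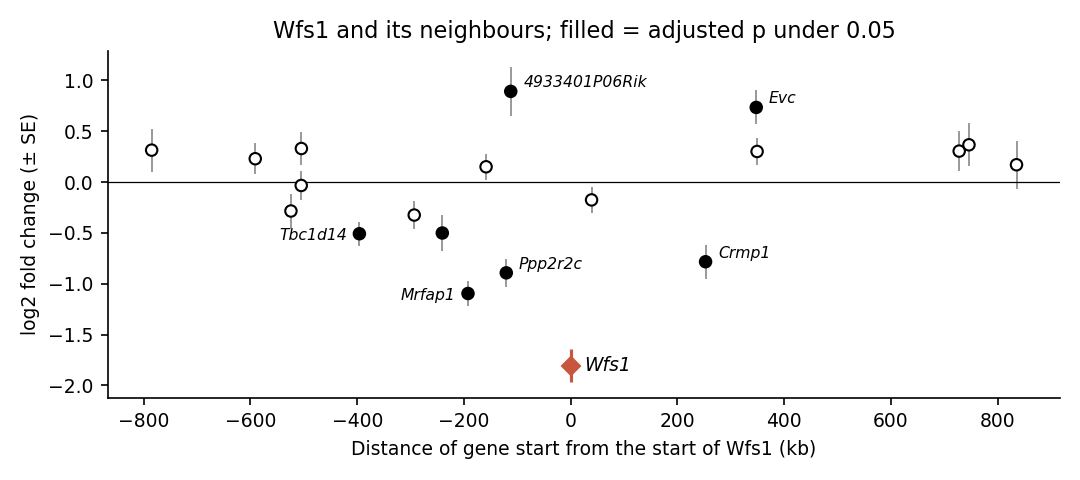
log2 fold change (± SE) of Wfs1 and of the 19 tested genes within 1 Mb, against the distance of their start from that of Wfs1 in kb, with filled points for adjusted p under 0.05. Wfs1 at -1.81 lies below all its neighbours, which range from -1.10 to 0.89, with both of these extremes on the same side of Wfs1.

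The 3 CDGSH genes encode small proteins that bind a 2Fe-2S cluster and sit in different compartments. Of these Cisd1 and Cisd3 were lower and Cisd2 was not called. Positions here and below are from GENCODE M21 on mm10. Cisd1 (chromosome 10, 71330480 to 71344954, minus strand) encodes mitoNEET of the outer mitochondrial membrane. Wild-type libraries had 46.5, 57.6, 40.6 and 56.8 CPM and homozygous libraries 18.9, 19.7, 17.6 and 17.9 CPM, here and below in the order of their replicate numbers. The homozygous values lay close together and far below the lowest wild-type value. On the log2 scale the difference was -1.43 (SE 0.14, adjusted p 5.54e-05, edgeR), or 37.0% of the wild-type level. It was -1.40 with the abundance trend removed and -0.89 (adjusted p 0.00317, edgeR) with the trend on CPM per kilobase removed. The call held in all 21 alternative fits.

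Cisd2 (chromosome 3, 135406412 to 135423925, minus strand) encodes the ER protein (NAF-1 or ERIS) that is mutated in the second form of Wolfram syndrome. Wild-type libraries had 26.6, 31.9, 28.9 and 32.2 CPM and homozygous libraries 24.9, 33.1, 26.3 and 27.3 CPM. The groups overlapped, and the highest value of all was in homozygous replicate 16. The log2 fold change was -0.10 (SE 0.13, adjusted p 0.573, edgeR), with a 95% interval of -0.36 to 0.16, and the sign turned with library totals as the only scaling (0.10). This interval does not reach the change of Wfs1 or of Cisd1. The 91 to 180 counts per library behind these values limit how small a change could be seen.

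Cisd3 (chromosome 11, 97685826 to 97688621, plus strand) encodes the matrix protein of the family and was the scarcest member, with 22 to 76 counts per library. It stood at 16.3, 16.6, 11.6 and 11.4 CPM in wild-type and at 8.65, 6.39, 9.25 and 8.51 CPM in homozygous libraries. The groups did not overlap, although wild-type replicates 9 and 10 came near the homozygous values. The log2 fold change was -0.74 (SE 0.20, adjusted p 0.0123, edgeR), and the call ended with the trend on CPM per kilobase removed (-0.51, adjusted p 0.0703 in edgeR), but not with a least-squares curve.

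The balance within the family was compared as a ratio of counts inside each library, in which the library's scaling cancels but a trend on abundance or gene length does not. There were 0.572, 0.554, 0.712 and 0.567 counts of Cisd2 per count of Cisd1 in wild-type replicates 7 to 10. In homozygous replicates 15 to 18 there were 1.32, 1.67, 1.49 and 1.52. The ratio was higher in every homozygous than in every wild-type library, a 2.50-fold difference of the geometric means (1.32 on the log2 scale). With the trend on CPM per kilobase removed the difference was 0.61 on the log2 scale. These are ratios of raw counts and not of levels, because the exons of Cisd2 are far longer: per kilobase the geometric means were 0.0846 and 0.211, with Cisd2 below Cisd1 in both genotypes. The two-sided exact permutation test over the 8 libraries gave p = 0.0286, the smallest p that 4 against 4 allows, and 0.143 after Benjamini-Hochberg adjustment over the 5 ratios tested. The ratio of Cisd3 to Cisd1 was 0.201 to 0.352 in wild-type libraries and 0.328 to 0.528 in homozygous ones (exact permutation p = 0.0571, adjusted 0.143). No ratio passed after adjustment. A ratio that alone reaches the smallest p cannot pass over 5 ratios, so this does not decide whether the balance of Cisd2 to Cisd1 differed.

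**Figure D3:**
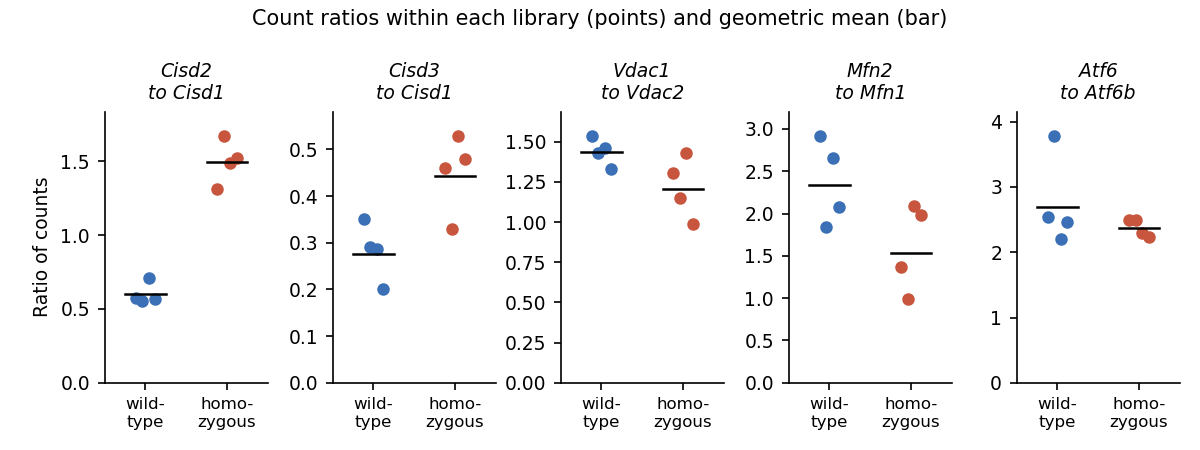
Counts of one gene per count of another within each library for 5 pairs, with bars at the geometric mean of the 4 wild-type and 4 homozygous libraries. The raw-count ratio of Cisd2 to Cisd1 is 0.554 to 0.712 in the wild-type libraries and 1.32 to 1.67 in the homozygous ones, and the other pairs overlap.

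Ncs1 (chromosome 2, 31245823 to 31295989, plus strand), the calcium sensor, had the most counts of the members. It was at 334, 236, 313 and 239 CPM in wild-type and at 150, 142, 147 and 136 CPM in homozygous libraries. The wild-type libraries fell into a higher pair, replicates 7 and 9, and a lower pair, replicates 8 and 10, while the homozygous libraries lay close together. Ncs1 thus had a log2 fold change of -0.96 (SE 0.15, adjusted p 0.000661, edgeR). It was -0.47 (adjusted p 0.012) with the abundance trend removed, and the call ended with the trend on CPM per kilobase removed (-0.31, adjusted p 0.0729).

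Vdac1 (chromosome 11, 52360860 to 52389397, plus strand), the main porin of the outer mitochondrial membrane, stood at 144, 132, 137 and 119 CPM in wild-type and at 72.6, 77.5, 92.8 and 60.8 CPM in homozygous libraries. All homozygous values were below all wild-type values, with replicate 17 the highest and replicate 18 the lowest among them. The log2 fold change was -0.81 (SE 0.14, adjusted p 0.00142, edgeR), -0.52 (adjusted p 0.0132) with the abundance trend removed and -0.21 (adjusted p 0.269) with the trend on CPM per kilobase removed. The second isoform, Vdac2, had 92.6 ± 2.08 CPM in wild-type and 62.4 ± 5.05 CPM in homozygous libraries (mean ± SD of 4), a log2 fold change of -0.57 (SE 0.11). Vdac1 counts per Vdac2 count were 1.33 to 1.53 in wild-type libraries and 0.986 to 1.43 in homozygous ones, which overlapped (exact permutation p = 0.0857, adjusted 0.143). On the log2 scale the difference was -0.25, and it turned to 0.0516 with the trend on CPM per kilobase removed.

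Mfn2 (chromosome 4, 147873599 to 147904704, minus strand), the mitofusin found on both sides of the contact, was at 169, 127, 169 and 131 CPM in wild-type and at 94.7, 93.5, 112 and 90.4 CPM in homozygous libraries. The same wild-type replicates, 7 and 9, were high for Mfn2 as for Ncs1. The log2 fold change was -0.61 (SE 0.14, adjusted p 0.00589, edgeR). Neither the abundance-corrected value (-0.27, adjusted p 0.104) nor the one corrected for CPM per kilobase (-0.16, adjusted p 0.337) passed. With a least-squares curve the latter was -0.33 (adjusted p 0.0703 in edgeR). Mfn1, the other mitofusin, had 63.3 ± 4.49 CPM in wild-type and 65.8 ± 21.8 CPM in homozygous libraries (SD, n = 4 each; log2 fold change 0.06, 95% interval -0.33 to 0.45, adjusted p 0.835, edgeR). Its homozygous values were split, with 69.1 CPM in replicate 15, 94.96 CPM in replicate 16 and 53.5 and 45.5 CPM in replicates 17 and 18, and without replicate 16 its log2 fold change was -0.17. Mfn2 counts per Mfn1 count were 1.85 to 2.92 in wild-type libraries and 0.985 to 2.08 in homozygous ones (exact permutation p = 0.143, adjusted 0.179).

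Atf6 (chromosome 1, 170704674 to 170867771, minus strand), the membrane-bound transcription factor that is cleaved during ER stress, stood at 151, 194, 142 and 136 CPM in wild-type and at 105, 108, 88.2 and 104 CPM in homozygous libraries. Wild-type replicate 8 was the highest library and homozygous replicate 17 the lowest. Atf6 thus had a log2 fold change of -0.62 (SE 0.14, adjusted p 0.00567, edgeR), and -0.28 (adjusted p 0.181) and -0.39 (adjusted p 0.0667) with the abundance trend and the trend on CPM per kilobase removed. Its paralogue Atf6b had 57.5 ± 5.58 CPM in wild-type and 42.5 ± 3.26 CPM in homozygous libraries (mean ± SD of 4), which gave -0.44 (SE 0.12, adjusted p 0.0123, edgeR). That call ended with library totals as the only scaling and with the trend on CPM per kilobase removed. Atf6 counts per Atf6b count were 2.21 to 3.78 in wild-type libraries and 2.23 to 2.50 in homozygous ones (exact permutation p = 0.486, adjusted 0.486).

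Tmbim6 (chromosome 15, 99392882 to 99410049, plus strand) stood at 195, 151, 216 and 159 CPM in wild-type and at 101, 102, 114 and 91.9 CPM in homozygous libraries, with wild-type replicates 7 and 9 again the higher pair. The groups did not overlap. Tmbim6 thus had a log2 fold change of -0.82 (SE 0.15, adjusted p 0.00149, edgeR). It was -0.44 (adjusted p 0.0182) with the abundance trend removed and -0.27 (adjusted p 0.109) with the trend on CPM per kilobase removed. Ncs1, Vdac1, Atf6 and Tmbim6 stayed called with either least-squares curve removed.

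**Figure D4:**
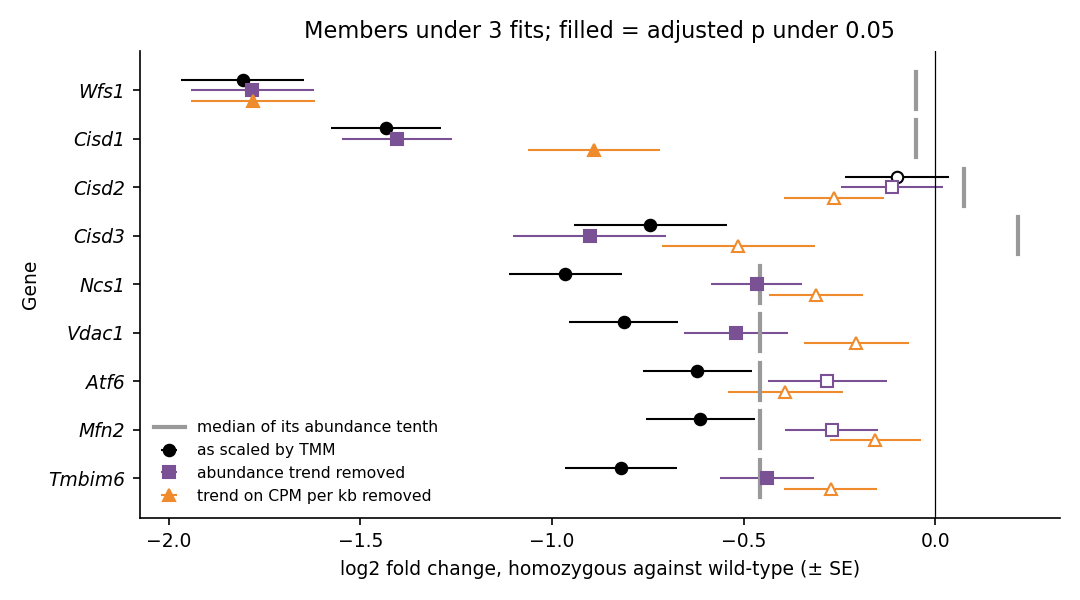
log2 fold change (± SE) of each member as scaled by TMM and with 2 trends removed, filled where the adjusted p is under 0.05, with grey bars at the median of all genes in the same decile of mean CPM. Wfs1 and Cisd1 are filled in all 3 fits, and Ncs1, Vdac1, Atf6, Mfn2 and Tmbim6 lie in the decile whose median is -0.46.

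The members differed in how far they stood from genes of like abundance. Wfs1 and Cisd1 were in decile 7 of mean CPM, whose median log2 fold change was -0.05, and 0.928% and 1.61% of the genes there had a lower value. Cisd3 was in decile 3, with a median of 0.22, and 5.32% of genes there were lower. Ncs1, Tmbim6, Vdac1, Atf6 and Mfn2 were in decile 10, where 10.7%, 18.3%, 18.8%, 33.8% and 34.5% of genes had a lower value. Cisd2 was in decile 6 and had 37.7% of genes below it. Ranked by mean CPM per kilobase, Wfs1 was again in decile 7 (median 0.02), with 0.298% of genes lower. Cisd1 was then in decile 10, with a median of -0.60 and 7.90% of genes lower. Ncs1, Tmbim6, Vdac1 and Mfn2 were in that decile too, with 19.8%, 29.9%, 30.5% and 48.7% of genes lower. Cisd3 and Atf6 were in decile 9 (median -0.33), with 15.6% and 23.2%, and Cisd2 in decile 3 (median 0.20), with 27.8%.

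Levels were compared between genes per kilobase of exon. In wild-type libraries the mean order was Ncs1 (60.3 CPM per kilobase), Vdac1 (50.9), Cisd1 (46.5), Tmbim6 (39.3), Mfn2 (28.7), Atf6 (16.9), Cisd3 (16.7), Wfs1 (13.7) and Cisd2 (3.90). The ranges of the 4 libraries overlapped between each gene and the next, except between Tmbim6 and Mfn2, between Mfn2 and Atf6, and between Wfs1 and Cisd2. In homozygous libraries Cisd1, at 17.1 CPM per kilobase, came after Ncs1 (30.9), Vdac1 (29.0), Tmbim6 (22.3) and Mfn2 (18.8). Wfs1 fell to 3.91 CPM per kilobase, with a range of 3.18 to 4.68 that overlapped the 3.25 to 4.32 of Cisd2. Exon length here is the union over all annotated transcripts, which for Cisd2 is 7667 bases, so levels of genes with long untranslated exons in rare transcripts are understated.

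The 5 genes whose log2 CPM over the 8 libraries was most like that of Wfs1, among 15186 genes with a mean of at least 10 CPM, were Olfr434 (Pearson r 0.997), Sv2a (0.996), Clptm1 (0.996), Idh3a (0.996) and Ganab (0.996). Sv2a encodes a synaptic vesicle glycoprotein, Idh3a a subunit of mitochondrial isocitrate dehydrogenase and Ganab the catalytic subunit of ER glucosidase II. All 5 were lower in homozygous libraries without overlap, and the 8 points behind each correlation share the split between genotypes. Sv2a went from 306 ± 31.1 to 152 ± 13.1 CPM and Ganab from 128 ± 10.2 to 67.5 ± 5.89 CPM (SD, n = 4 each). Olfr434, an olfactory receptor gene, was counted 80 to 361 times per wild-type library and 4 to 15 times per homozygous library. Olfactory receptor genes have similar copies, which makes its counts uncertain.

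Other genes of the pathway were taken in 7 lists of 79 genes, all of which passed the low-count filter. Of the 79, 36 were lower and 7 higher in homozygous libraries at an adjusted p under 0.05 (edgeR, Benjamini-Hochberg over all genes). Of all genes tested 20.4% were lower and 20.7% higher, and the counts of each list below are to be read against these shares. The TMM-scaled medians below stand beside a median of 0.05 over all genes.

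**Figure D5:**
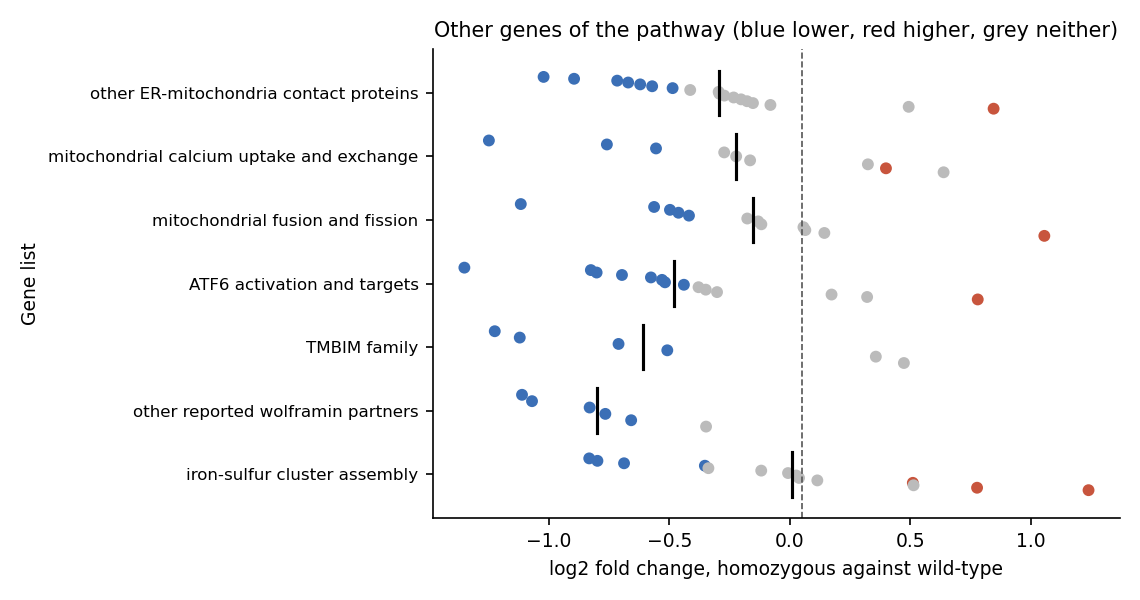
log2 fold change of each gene in 7 lists, coloured by call, with a black bar at the list's median and a dashed line at the median of all genes. The list of iron-sulfur cluster assembly lies around 0.01 with members on both sides, and the medians of the other lists lie between -0.80 and -0.15.

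Among 18 other ER-mitochondria contact proteins 7 were lower, 1 was higher and 10 were neither, with a median log2 fold change of -0.29. Fkbp8, an anchor of the outer mitochondrial membrane, fell, with a log2 fold change of -1.02 (SE 0.13), at 237 ± 17.5 CPM in wild-type and 117 ± 14.6 CPM in homozygous libraries (SD, n = 4 each). Bcap31, an ER cargo protein that pairs with Fis1, fell by 0.90 (SE 0.14) on the log2 scale, and Vapa, an ER tether, by 0.72 (SE 0.12). Canx, the chaperone calnexin and the gene of the list with the highest level per kilobase, had -0.49 (adjusted p 0.0256, edgeR), and its sign turned with the robust abundance trend (0.09) or the robust trend on CPM per kilobase (0.26) removed. Its call ended without wild-type replicate 7 (-0.45), 9 (-0.41) or 10 (-0.49), without homozygous replicate 15 (-0.44), and with library totals as the only scaling (-0.29). The inositol trisphosphate receptor gene Itpr2 was the member that rose, from 58.6 ± 6.01 to 106 ± 42.5 CPM (0.85, SE 0.23), and its value was 0.53 without homozygous replicate 18. With the robust trend on CPM per kilobase removed 2 members of this list, Fkbp8 and Bcap31, were lower and 1 higher. In that fit 15.2% of all genes were lower. With a least-squares curve 7 were lower and 1 higher, where 19.3% of all genes were lower.

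Of 9 genes of mitochondrial calcium uptake and exchange 3 were lower and 1 higher (median -0.22), where 20.4% and 20.7% of all genes were. Smdt1, the EMRE subunit of the calcium uniporter, listed under the symbol 1500032L24Rik, fell, with a log2 fold change of -1.25 (SE 0.12), at 51.5 ± 4.28 CPM in wild-type and 21.7 ± 1.18 CPM in homozygous libraries (SD, n = 4 each). The cation exchanger gene Letm1 fell by 0.56 (SE 0.13) on the log2 scale, a call that ended with library totals as the only scaling. Smdt1 and Letm1 stayed called with the abundance trend or the trend on CPM per kilobase removed (-0.78 and -0.70 in the latter). Micu2, listed as Efha1, was the higher member (0.40, adjusted p 0.0438, edgeR), and the call ended on leaving out any library but homozygous replicate 18, with values from 0.28 to 0.42 in those 7 fits.

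Of 12 fusion and fission genes 5 were lower and 1 higher (median -0.15), beside 20.4% and 20.7% of all genes. Fis1, a tail-anchored fission factor, fell, with a log2 fold change of -1.12 (SE 0.14), at 69.3 ± 7.81 CPM in wild-type and 32.0 ± 4.90 CPM in homozygous libraries (SD, n = 4 each), and was called in both trend-removed fits. Gdap1, a glutathione transferase-like protein of the outer membrane, fell by 0.56 (SE 0.13) on the log2 scale. Yme1l1, an inner-membrane protease, fell by 0.42 (SE 0.12), a call that ended without wild-type replicate 7 (-0.40), without homozygous replicate 15 (-0.36) and with library totals as the only scaling. The member called higher was Mief2, listed as Smcr7, with 118 CPM in homozygous replicate 18 and 31.7 to 50.3 CPM in the other homozygous libraries. Its log2 fold change of 1.06 was 0.47 without that library (adjusted p 0.0728, edgeR), and the call also ended without wild-type replicate 7 (1.07), 9 (0.96) or 10 (1.03). With either robust trend removed 1 member of this list was lower and 1 higher. With either least-squares curve 2 were lower and 1 higher.

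Of 14 genes of ATF6 activation and its targets 8 were lower and 1 higher (median -0.48). Creld2, an ER stress-induced secreted protein, fell, with a log2 fold change of -1.35 (SE 0.24), at 32.1 ± 4.61 CPM in wild-type and 12.4 ± 5.03 CPM in homozygous libraries (SD, n = 4 each). The chaperone gene Hspa5 fell by 0.83 (SE 0.13) on the log2 scale and the disulfide isomerase gene Pdia4 by 0.53 (SE 0.12). Syvn1, the ubiquitin ligase of ER-associated degradation, was called higher (0.78, adjusted p 0.0474, edgeR), with 122 and 123 CPM in homozygous replicates 17 and 18 and 52.8 and 52.3 CPM in replicates 15 and 16. That call ended without any one of wild-type replicates 7 to 10 (0.80, 0.74, 0.68 and 0.88), without homozygous replicate 17 (0.57) or 18 (0.56), and in 6 of the other alternatives. With the robust trend on CPM per kilobase removed 3 members of the list were lower and 2 higher. Hspa5 (-0.19) and Pdia4 (-0.19) were not called there. With a least-squares curve 5 were lower and 2 higher.

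Of the 6 other TMBIM family genes 4 were lower and 0 higher (median -0.61). Grina, an NMDA receptor-associated Golgi and ER protein, fell, with a log2 fold change of -1.23 (SE 0.19), at 281 ± 68.4 CPM in wild-type and 120 ± 20.8 CPM in homozygous libraries (SD, n = 4 each). Tmbim4, a Golgi calcium channel, fell by 1.12 (SE 0.22) on the log2 scale and the mitochondrial Ghitm by 0.71 (SE 0.13). With the abundance trend removed 2 of the 6 were lower, Grina and Tmbim4. With the trend on CPM per kilobase removed 2 were lower, Tmbim4 and Faim2, and Grina (-0.37, adjusted p 0.0924, edgeR) was not called. Ghitm was called in neither of these robust fits. With least-squares curves on abundance and on CPM per kilobase 4 and 3 of the 6 were lower. Of 6 other reported partners of wolframin 5 were lower and 0 higher (median -0.80). The sodium pump gene Atp1b1 fell, at 928 ± 170 CPM in wild-type and 442 ± 33.3 CPM in homozygous libraries (mean ± SD of 4; log2 fold change -1.07, SE 0.17). Calm3, a calmodulin gene (-1.11, SE 0.15), and the ER calcium pump gene Atp2a2 (-0.83, SE 0.15) also fell. With either robust trend removed 0 of the 6 were lower. With either least-squares curve 3 of the 6 were lower.

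Iron-sulfur cluster assembly supplies proteins such as the CDGSH family. Of 14 iron-sulfur cluster assembly genes 4 were lower, 3 were higher and 7 were neither (median 0.01), shares near the 20.4% and 20.7% of all genes. Fdx1l, a mitochondrial ferredoxin, rose with 0.78 (SE 0.17), and Lyrm4, the partner of the cysteine desulfurase, with 0.51 (SE 0.12). The scaffold gene Iscu fell by 0.83 (SE 0.16) on the log2 scale. Fdx1l, Lyrm4 and Iscu stayed called in the same direction with the trend on CPM per kilobase removed, at 1.08, 0.92 and -0.71.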

How the data were processed

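Hippocampi of 4 homozygous and 4 wild-type mice were sequenced as whole-transcriptome libraries on a SOLiD 4 instrument, per the labels' protocols. What the authors deposited is a single table of raw counts by gene symbol, on build mm10 per the submitters' processing notes. No aligner, counting program, strand setting or annotation is named in them. Columns were matched to animals by the labels, and 0 count columns belonged to no listed sample. Genes were filtered with filterByExpr and scaled with TMM factors. Genotypes were compared by edgeR 4.0.16 (R 4.3.3) with the quasi-likelihood test and no covariate, adjusted by Benjamini-Hochberg over 20478 genes. CPM are scaled by TMM, SD is over 4 libraries, SE is that of the log2 fold change, and 95% intervals are 1.96 SE to each side. P-values measure the spread between animals of a genotype. Exact permutation tests of 5 count ratios (0.5 added to each count) used all 70 regroupings.

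Positions and exon lengths came from GENCODE M21, which matched 97.5% of table entries. No exon of a member overlapped an exon of another gene in that annotation. Overlap with introns of other genes was not looked at, and the annotation behind the counts is not named. How strand bears on the members was therefore not tested. Transcripts of other genes at least 90% identical over 200 bases (BLAST 2.17.0) were found for Cisd1 (Gm8738) and Vdac1 (Gm13360 and Gm8459), and how the authors shared reads with them is unknown.

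The alternatives were DESeq2-type size factors, scaling by library totals, no filter, a filter of 1 CPM in 4 libraries, DESeq2 1.42.0, limma-voom (limma 3.58.1), a robust fit, 1 surrogate variable (sva 3.50.0), omission of Rn45s and Lars2, a threshold of 0.1, each library left out, and removal of a loess curve (span 0.3) of each library on mean CPM or on CPM per kilobase. The plan for that curve named only its span. After fits had been seen, 8 versions (by degree, robust or least-squares fitting, and prior count) were compared on Ncs1, Tmbim6, Hspa5, Asns and Atp1b1, of which the first and second are members. The robust curve of degree 1 was kept because it came closest to earlier results of these data, and the least-squares curve was added as an alternative after seeing the data.

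Counts simulated for 19881 genes, homozygous against wild-type, served to test the edgeR step. It called 11 of 65 genes with a 1.5-fold change, 38 of 65 with a 2-fold change and 61 of 61 with a 4-fold change. It also called 9 unchanged genes. A far smaller share of genes was changed there than the 41.1% called in the measured libraries. Recovery of such fold changes in the measured libraries was not tested. The members and lists were chosen with earlier results of these data known. Genes named beside the members are the partners of the ratios, up to 3 list members of smallest p and the one highest per kilobase, up to 6 neighbours of smallest p and the 5 genes most like Wfs1. Itpr2, Micu2, Mief2, Syvn1, Lyrm4 and Jakmip1 were named after their values were seen. Some genes that this rule would name are not reported here.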

Additional observations from a re-analysis of the deposited data

Results flagged for a closer look

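In 34 groups of 4 libraries tested, 1 held a library far from the others, and chance flags about 1 in 20 groups. The log2 ratio of Cisd2 to Cisd1 counts was -0.49 in wild-type replicate 9, where the other wild-type libraries lay between -0.85 and -0.80. Wild-type replicate 9 was the deepest library, and it still lay below every homozygous library in this ratio.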

How the results depend on the processing

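The count of lower members was 8 in the edgeR fit, where 20.4% of all genes were lower. It was 2 with the robust trend on CPM per kilobase removed, where 15.2% of all genes were lower. With that curve fitted by least squares, an alternative chosen after seeing the data, it was 7 (19.3% of all genes). The choice of curve thus changes which members are called. In the other alternatives the count of lower members was 8, except 6 with the robust abundance trend removed (16.3% of all genes). It was 8 in each of the 8 fits that left out a library. The count of higher members was 0 in all of these, where 20.7% of all genes were higher in the edgeR fit. Cisd2 was 0.10 with library totals and the ratio of Vdac1 to Vdac2 changed sign to 0.0516 on the log2 scale with the trend on CPM per kilobase removed; the causes were not tested. Among the other 4 ratios no alternative changed the direction. None was called in any alternative, and a ratio that alone reaches the smallest p could not be. The ratio of Cisd2 to Cisd1 was 0.61 on the log2 scale with the trend on CPM per kilobase removed, against 1.32. No paired analysis was possible because the genotypes share no replicate numbers. Cisd3, with 22 to 76 counts per library, is the member most limited by depth.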
